A study of Mus musculus with 12 samples.

Results

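The genes described here encode 9 subunits of the ionotropic glutamate receptors that carry fast excitatory transmission, 4 of the AMPA type (Gria1, Gria2, Gria3 and Gria4) and 5 of the NMDA type (Grin1, Grin2a, Grin2b, Grin2d and Grin3a). They were chosen by gene name, with earlier results of these data known. All 9 were found, each on 1 row, among the 55357 genes of the deposited files. RNA came from E17.5 mouse cerebral cortex, dissected with the hippocampal formation and separated into rostral and caudal pieces. The knockout embryos (NcreEGFRFF) carried floxed alleles of Egfr, the epidermal growth factor receptor gene, on both chromosomes, and Nestin-Cre, which is active in neural progenitors and their descendants. The control embryos (EGFRF+) carried 1 floxed allele, and whether they also carried Cre is not given in the sources used here, so an effect of Egfr loss and an effect of Cre cannot be told apart. There were 4 groups of 3 libraries, knockout rostral, control rostral, knockout caudal and control caudal, from 6 embryos according to the titles.

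AMPA receptors assemble from GluA subunits, which these 4 genes encode, and open within a millisecond of glutamate release. GluA2, the product of Gria2, makes the channel nearly impermeable to calcium once its messenger RNA has been edited at the pore. NMDA receptors need GluN1 (Grin1) together with GluN2 or GluN3 subunits and pass calcium when glutamate and membrane depolarization coincide. In the rodent cortex GluN2B (Grin2b) prevails before birth and GluN2A (Grin2a) is added mainly after it, GluN2D (Grin2d) is an early subunit kept by some interneurons, and GluN3A (Grin3a) lowers calcium entry in immature synapses.

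Total counts per library ran from 25223733 to 30383672. Egfr lay between 3.60 and 7.33 CPM (a library's counts scaled to a total of 1e+06) in the 6 knockout libraries and between 19.2 and 41.6 CPM in the 6 control libraries. Of the tissue's markers, Neurod6, a factor of cortical glutamatergic neurons, was present in every library at 513 to 970 CPM. Several libraries stood apart or disagreed with their titles. Nr2f1, a factor graded from high caudal to low rostral cortex, was at 340 CPM in knockout rostral 2 and 348 CPM in control rostral 3, against 71.3 CPM in knockout caudal 2 and 58.6 CPM in control caudal 3. Xist and transcripts of 4 Y-linked genes differed between the rostral and caudal libraries of all titled embryos but knockout 7, and control rostral 1 and 3 held both kinds. The caudal groups were not balanced for them. Xist was at 323.9, 426.5 and 376.2 CPM in knockout caudal 5, 2 and 7 and at 0, 487.6 and 253.1 CPM in control caudal 1, 3 and 9. The Y-linked genes summed to 177.7 CPM in control caudal 1. The part of sex in the genotype differences was not tested. The share of counts from mitochondrial genes was 7.25% in knockout rostral 7 and 4.77% in knockout caudal 5, and at most 3.53% elsewhere. Groups below are as labelled. The n given is of libraries or titled sums, whose spread is all that the p-values measure. In tissue of mixed cells, fewer cells of a type and less RNA per cell cannot be told apart.

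RefSeq's table, on build GRCm38.p6, held the 250 bases before the start of 4 of the 9 members, Gria2, Gria4, Grin1 and Grin2d. Of these 4, the promoters of Grin1 and Gria4 are shown, 1 of each receptor type. The Pearson r between the log2 CPM of these 2 genes was 0.91 (n = 12). Gria1, which had no window, was closer to Grin1 (r = 0.94). The windows are written 5′ to 3′ on the gene's strand, and capitals mark CACGTG, an E-box whose letters read the same on both strands.
Grin1 (chr2:25319188-25319437, minus strand): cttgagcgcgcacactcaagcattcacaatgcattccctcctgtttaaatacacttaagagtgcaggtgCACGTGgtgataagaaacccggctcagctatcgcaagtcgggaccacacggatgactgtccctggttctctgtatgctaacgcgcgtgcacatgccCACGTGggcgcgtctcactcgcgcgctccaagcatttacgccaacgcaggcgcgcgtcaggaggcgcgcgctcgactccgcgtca
Gria4 (chr9:4796235-4796484, minus strand): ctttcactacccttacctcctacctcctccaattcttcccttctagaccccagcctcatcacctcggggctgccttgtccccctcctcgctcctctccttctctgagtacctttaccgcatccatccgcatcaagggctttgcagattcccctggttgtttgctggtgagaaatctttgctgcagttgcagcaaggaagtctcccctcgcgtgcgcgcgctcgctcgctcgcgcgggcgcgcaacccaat
Grin1 held CACGTG at 2 places and Gria4 at none, where 6.02% of 32851 windows of that length held it. The windows of Gria2 and Grin2d, not shown, did not hold it either. Neither window held GGGCGG, searched on both strands and found in 32.7% of all windows, or TGACGTCA, found in 1.55%. Both windows had a GC content of 58.8%, against a median of 52.4% over all windows, with 27 CG pairs in Grin1 and 16 in Gria4. These matches describe the letters of the window and were not related to the expression values.

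Per-length levels, which allow genes to be compared with each other, placed Gria1 and Gria2 at the top. These levels are counts per kilobase of a gene's exonic length, scaled so that the genes of a library sum to 1e+06. The medians over the 12 libraries were 50.3 for Gria1, 48.4 for Gria2, 24.9 for Grin2b, 13.7 for Gria4, 12 for Gria3, 6.10 for Grin1, 2.28 for Grin2d, 1.58 for Grin3a and 0.244 for Grin2a. Gria1 exceeded Gria2 in 6 of 12 libraries and Gria4 exceeded Gria3 in 7 of 12, so neither of these neighbours was separated. Grin2d exceeded Grin3a in 10 of 12, and every other neighbour in that order kept its place in 12 of 12. The obligatory NMDA subunit gene Grin1 stood at 0.203 to 0.323 of the summed level of Grin2a, Grin2b and Grin2d in a library, a sum without Grin2c. The order depends on the lengths used: Gria2 has 15548 exonic bases and Gria1 6043, and a level is understated where transcripts shorter than the annotated exons prevail.

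Gria1 and Gria2 made up most of the AMPA sum, and Grin2b most of the NMDA sum, in every library. Of the summed AMPA subunit level, Gria1 made up 40.8% ± 4.75, Gria2 39.4% ± 4.86, Gria4 10.6% ± 1.74 and Gria3 9.18% ± 1.76 (SD, n = 12). Of the summed level of the 5 NMDA members, Grin2b made up 70.2% ± 3.57, Grin1 18.5% ± 2.00, Grin2d 5.84% ± 1.37, Grin3a 4.36% ± 1.40 and Grin2a 1.03% ± 0.643 (SD, n = 12). This NMDA sum leaves out Grin2c, at 1.07 to 2.29 CPM over the 12 libraries, and Grin3b, at 0 to 0.263 CPM. By CPM, without regard to length, the means were 24.5% for Gria1 and 60% for Gria2 of the AMPA sum, and 8.86% for Grin1 and 85.7% for Grin2b of the NMDA sum. The widest gap between genotypes lay in the caudal libraries, where Gria2 made up 43.6% ± 2.57 of the AMPA sum in knockout and 33.9% ± 3.31 in control (SD, n = 3 each). The knockout caudal shares of Gria2 ran from 41.6% to 46.5% and the control caudal shares from 30.1% to 36.1%, without overlap. Gria1 held 35.1% ± 3.51 of that sum in knockout caudal and 44.5% ± 2.53 in control caudal libraries (SD, n = 3 each). These shares were singled out after their values were seen and were not tested. In rostral libraries the Gria2 share was 40.3% ± 5.56 in knockout and 39.7% ± 2.76 in control (SD, n = 3 each).

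**Figure D1:**
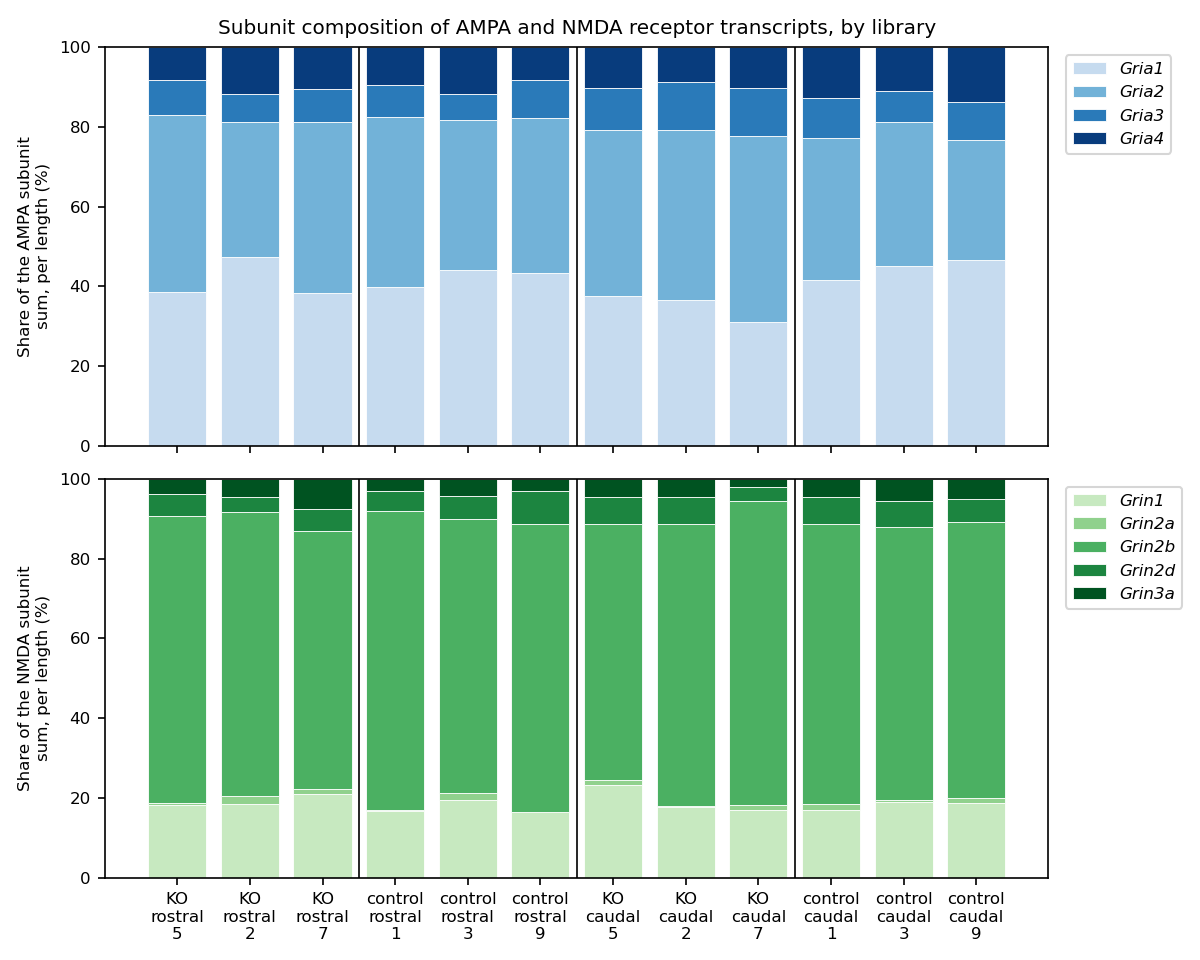
Share of each subunit (percent, vertical axis) in the summed per-length level of the 4 AMPA (upper panel) and 5 NMDA subunit genes (lower panel), 1 bar per library, grouped as labelled with knockout left of control within each part. The NMDA sum leaves out Grin2c and Grin3b. Grin2b makes up 64.2% to 76.4% of the NMDA sum in all 12 libraries, and Gria2 takes a larger share of the AMPA sum in the 3 knockout caudal than in the 3 control caudal libraries.

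Of the AMPA subunits, Gria1 (ENSMUSG00000020524.17, GRCm39 chromosome 11, 56902213 to 57221070) encodes GluA1, the subunit most tied to activity-dependent insertion at synapses. It was at 117, 193 and 78.8 CPM in knockout rostral 5, 2 and 7 and at 129, 166 and 96.1 CPM in control rostral 1, 3 and 9. It was at 71.8, 77.3 and 71.6 CPM in knockout caudal 5, 2 and 7 and at 94.6, 120 and 109 CPM in control caudal 1, 3 and 9. All knockout caudal libraries thus lay below all control caudal libraries, while the rostral groups overlapped. By the quasi-likelihood test of edgeR, the log2 fold change of caudal libraries was -0.54 (SE 0.11, unadjusted p = 0.00115, adjusted p = 0.422) and that of rostral libraries 0.03 (SE 0.33, adjusted p = 1). The caudal call depended on the tool, since DESeq2 gave a log2 fold change of -0.53 with an adjusted p of 0.0144 and edgeR without a filter on low counts one of -0.53 with an adjusted p of 0.0179. Over 12 alternatives the caudal value ran from -0.63 to -0.45 and its adjusted p from 0.0144 to 1.

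Gria4 (ENSMUSG00000025892.17, chromosome 9, 4417896 to 4796234) encodes GluA4, an early AMPA subunit that interneurons keep. It was at 20.2, 19.5 and 25.1 CPM in knockout caudal 5, 2 and 7, against 30.3, 30.3 and 33.6 CPM in control caudal 1, 3 and 9. Here too the caudal groups did not overlap, and the log2 fold change of -0.53 (SE 0.13, unadjusted p = 0.00312) had an adjusted p of 0.609 by edgeR. In rostral libraries it was at 25.9, 49.7 and 22.4 CPM in knockout 5, 2 and 7 and at 32.5, 46.7 and 19.2 CPM in control 1, 3 and 9, and the groups overlapped.

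Gria2 (ENSMUSG00000033981.15, chromosome 3, 80588757 to 80710142), whose product governs calcium permeability, had no such gap. It was at 345, 357 and 225 CPM in knockout rostral 5, 2 and 7 and at 357, 362 and 222 CPM in control rostral 1, 3 and 9. In caudal libraries it was at 204, 232 and 276 CPM in knockout 5, 2 and 7 and at 207, 246 and 181 CPM in control 1, 3 and 9. By edgeR the caudal log2 fold change was 0.18 (SE 0.16, adjusted p = 1), against a rostral one of 0.02 (SE 0.23, adjusted p = 1). The X-linked Gria3 (ENSMUSG00000001986.17, chromosome X, 40489731 to 40767478), which encodes GluA3, had the narrowest range for its level, 28.4 to 46.5 CPM over the 12 libraries. It averaged 39.6 ± 6.06 CPM in knockout caudal and 35.6 ± 2.12 CPM in control caudal libraries, and 39.6 ± 9.78 CPM in knockout rostral and 39.0 ± 3.62 CPM in control rostral libraries (SD, n = 3 each). Gria2 and Gria3 were the 2 members with a positive estimate in caudal libraries.

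**Figure D2:**
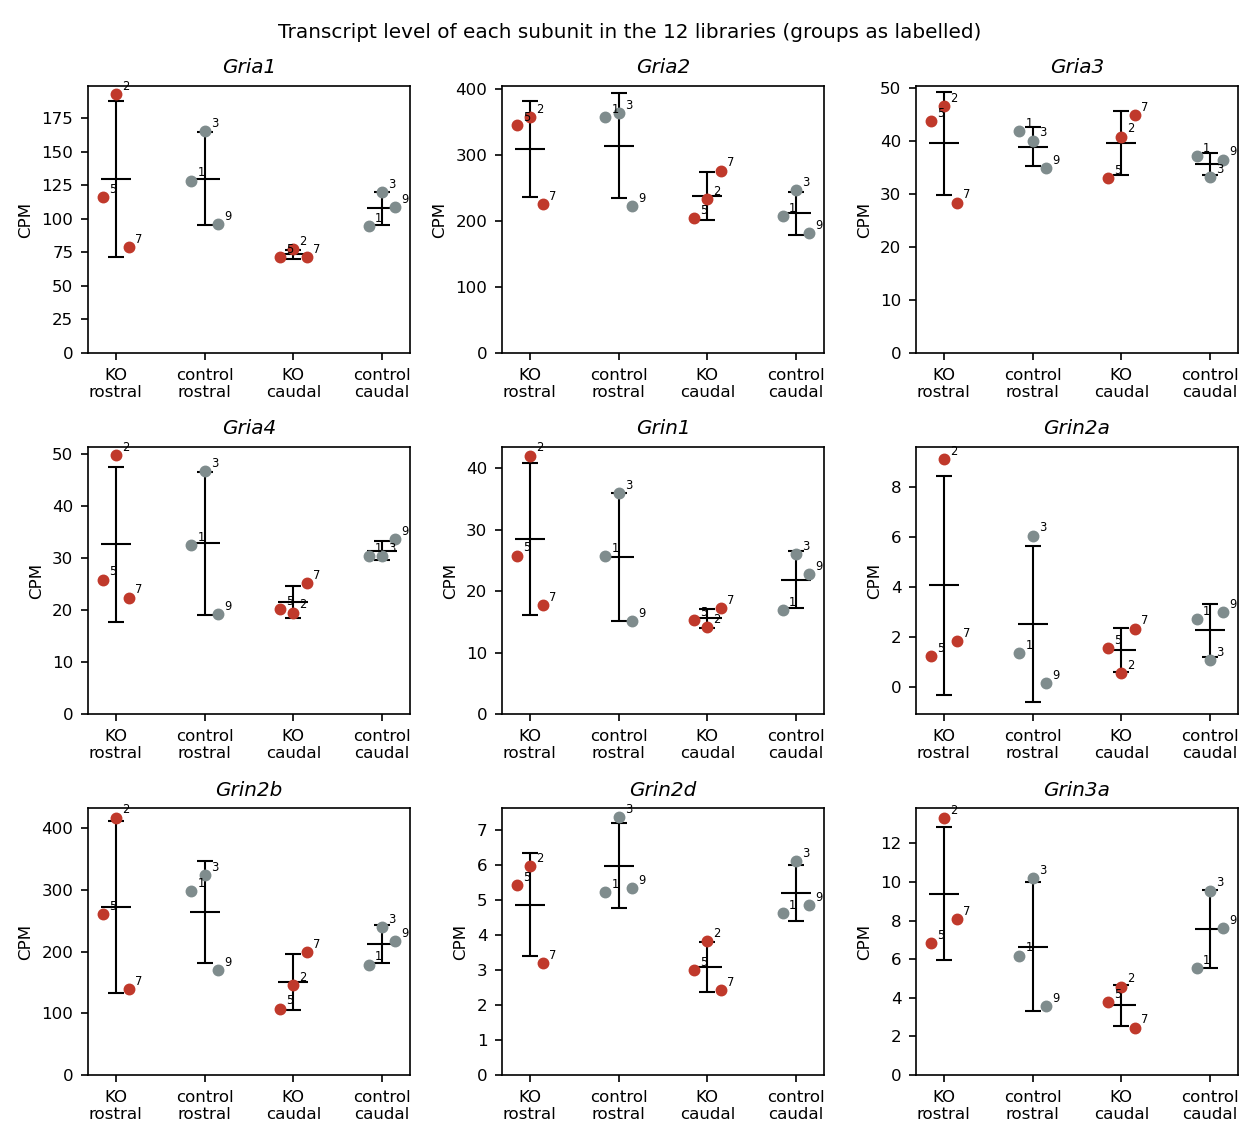
Level of each subunit gene in CPM (vertical axes start at or below 0) in the 12 libraries, with the titled embryo number beside each point, the group mean as a bar and the SD as a whisker (n = 3), knockout in red and control in grey. Gria1, Gria4, Grin2d and Grin3a do not overlap between the caudal groups, and all 9 genes overlap between the rostral groups.

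Of the NMDA subunits, Grin1 (ENSMUSG00000026959.14, chromosome 2, 25181193 to 25209199) is the one every NMDA receptor needs. It was at 15.3, 14.2 and 17.2 CPM in knockout caudal 5, 2 and 7 and at 16.9, 26.0 and 22.7 CPM in control caudal 1, 3 and 9, so that knockout 7 lay just above control 1. The log2 fold change was -0.48 (SE 0.18, unadjusted p = 0.0268, adjusted p = 0.908 by edgeR). In rostral libraries it was at 25.8, 42.1 and 17.7 CPM in knockout 5, 2 and 7 and at 25.8, 35.9 and 15.1 CPM in control 1, 3 and 9. Grin2b (ENSMUSG00000030209.15, chromosome 6, 135690231 to 136150509), the main GluN2 gene before birth, averaged 151 ± 45.8 CPM in knockout caudal and 212 ± 30.7 CPM in control caudal libraries (SD, n = 3 each). Its caudal groups overlapped, with a highest knockout value of 199 CPM and a lowest control value of 179 CPM, and the log2 fold change was -0.48 (SE 0.23, adjusted p = 1 by edgeR). In rostral libraries it averaged 273 ± 139 CPM in knockout and 264 ± 82.4 CPM in control (SD, n = 3 each).

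Grin2d (ENSMUSG00000002771.13, chromosome 7, 45481307 to 45527802) and Grin3a (ENSMUSG00000039579.16, chromosome 4, 49661611 to 49845744) encode GluN2D and GluN3A. Grin2d was at 3.00, 3.82 and 2.42 CPM in knockout caudal 5, 2 and 7, against 4.61, 6.10 and 4.84 CPM in control caudal 1, 3 and 9. Grin3a was at 3.77, 4.58 and 2.46 CPM in knockout caudal 5, 2 and 7, against 5.55, 9.55 and 7.59 CPM in control caudal 1, 3 and 9. Neither gene overlapped between the caudal groups, and their log2 fold changes of -0.75 (SE 0.22, unadjusted p = 0.0107) and -1.07 (SE 0.28, unadjusted p = 0.00602) had adjusted p of 0.756 and 0.717 by edgeR. The 12 alternatives gave Grin2d an adjusted p of 0.384 to 1 and Grin3a one of 0.0634 to 1.

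In rostral libraries Grin2d averaged 4.86 ± 1.46 CPM in knockout and 5.97 ± 1.21 CPM in control (SD, n = 3 each). Grin3a was at 6.85, 13.3 and 8.07 CPM in knockout rostral 5, 2 and 7 and at 6.18, 10.2 and 3.58 CPM in control rostral 1, 3 and 9, with a log2 fold change of 0.54 (SE 0.41, adjusted p = 1 by edgeR). Without control rostral 1 and 3, the libraries with both Xist and Y-linked transcripts, that value was 1.39 (SE 0.48, adjusted p = 0.935 by edgeR), from 3 knockout libraries and 1 control library that is assumed to vary like the others. Grin3a thus had estimates of opposite sign in rostral and caudal libraries. The difference between them, the genotype by part interaction, was -1.67 (SE 0.41, unadjusted p = 0.00506, adjusted p = 1 by edgeR), so that it did not pass over all genes.

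Grin2a (ENSMUSG00000059003.13, chromosome 16, 9385762 to 9813424), the subunit gene that is induced mainly after birth, was the scarcest member and by far the most uneven. It was at 1.23, 9.13 and 1.86 CPM in knockout rostral 5, 2 and 7 and at 1.37, 6.07 and 0.149 CPM in control rostral 1, 3 and 9. In caudal libraries it was at 1.55, 0.573 and 2.34 CPM in knockout 5, 2 and 7 and at 2.74, 1.07 and 3.00 CPM in control 1, 3 and 9. The genotypes overlapped in both parts, with log2 fold changes of 0.74 (SE 1.16, adjusted p = 1) in rostral and -0.59 (SE 0.54, adjusted p = 1) in caudal libraries by edgeR. The lowest library, control rostral 9, had 4 counts and the highest, knockout rostral 2, had 261, so counting error is large at the low end. Per length, the Grin2a level was 0.121% to 3.03% of the Grin2b level in the same library.

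Read as a list, the 9 subunit genes gave 0 calls at an adjusted p under 0.05 in each comparison of knockout with control by edgeR. In caudal libraries 0.0472% of the 16964 genes tested were called, 5 of 9 members had an unadjusted p under 0.05 against 5.13% of all genes, and DESeq2 called 1 member, Gria1, beside 0.403% of the genes it tested. In that comparison 7 of 9 members had a negative estimate, and the median log2 fold change was -0.53 against -0.00125 over all genes. The CPM of the groups did not overlap for 4 of 9 members, all with knockout lower, where 6.14% of all genes lay that way and 10.1% in either direction. With levels scaled by TMM, a choice added after the data were seen, the count was again 4, against 5.23% of all genes. The members are not independent of each other, as their levels moved together over the libraries. They were also chosen with earlier results of these data known, so these counts beside all genes are a description only. In rostral libraries 0% of 17131 genes were called, 0 members had an unadjusted p under 0.05, and DESeq2 called 0 members beside 0.0120% of its genes. There the groups overlapped for 9 of 9 members, where 6.21% of all genes did not overlap, and the median was 0.06 against 0.000889 over all genes. Of the rostral estimates 8 of 9 were positive, but this rested on single libraries. Without knockout rostral 2, 1 of 9 was, Grin3a at 0.22, and the others ran from -0.63 (Grin2a) to -0.0696 (Gria3). Without control rostral 9, Gria1 (-0.133), Gria2 (-0.166), Gria4 (-0.225), Grin1 (-0.0617) and Grin2b (-0.14) turned negative. Without knockout rostral 5, Gria2 (-0.0583) and Gria3 (-0.0121) did. Without knockout rostral 7, which had the highest mitochondrial share, Gria1 was at 0.28 and Grin2b at 0.393. Without control rostral 1 and 3, against the 1 control library left, 8 of 9 were positive and larger, with Grin2a at 4.72, Grin1 at 0.91, Gria4 at 0.76, Grin2b at 0.67, Gria2 at 0.47, Gria1 at 0.42 and Gria3 at 0.175 (adjusted p of 0.935 to 0.972 for the 9 members by edgeR).

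**Figure D3:**
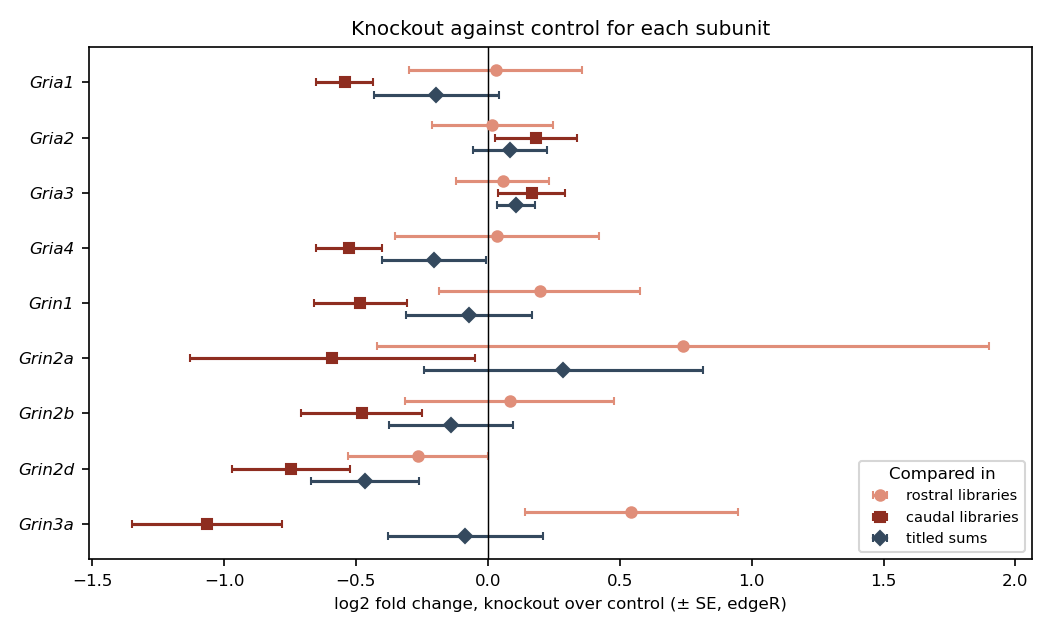
Log2 fold change of knockout over control (horizontal axis, ± SE derived from the edgeR test) for the 9 subunit genes, compared in rostral libraries, in caudal libraries and in sums of the titled embryos (n = 3 against 3 each). In caudal libraries 7 of 9 estimates lie below 0, whereas 8 of 9 lie above 0 in rostral libraries, and 0 of them passed over all genes. Without knockout embryo 2 the rostral estimates of 8 of 9 members are negative.

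The marker lists of cell types are set beside the caudal comparison, including those with higher estimates. Of 10 markers of GABAergic interneurons, 10 had a negative estimate in caudal libraries (median log2 fold change -0.41). Of these 0 were called by edgeR, 4 had an unadjusted p under 0.05, and DESeq2 called 2, Lhx6 and Sst. Their summed level was 417, 760 and 228 CPM in knockout caudal 5, 2 and 7 and 435, 931 and 408 CPM in control caudal 1, 3 and 9, with none of the 10 at 0. Sst, the peptide of an interneuron class, was at 1.09, 1.07 and 0.859 CPM in knockout caudal libraries, against 1.93, 7.49 and 4.34 CPM in control caudal libraries. Lhx6, an interneuron factor, was at 36.3, 40.8 and 29.6 CPM in knockout caudal libraries, against 53.5, 64.6 and 51.9 CPM in control caudal libraries. Of 10 markers of ventral forebrain and striatum 9 were tested, and these 9 had negative estimates as well (median -0.50). All 10 summed to 68.0, 161 and 12.3 CPM in knockout caudal libraries, against 52.5, 243 and 46.4 CPM in control caudal libraries, with 1 of them at 0 in control caudal 1. Markers of glutamatergic cortical neurons summed to 2027, 2572 and 2481 CPM in knockout and 2198, 2173 and 1980 CPM in control caudal libraries. Of these markers 5 of 8 had positive estimates (median 0.125), with 0 calls by either tool. Oligodendrocyte precursor markers had the most negative median of the marker lists, -0.96, with 5 of 5 estimates negative, 4 unadjusted p under 0.05, 0 calls by edgeR and 2 by DESeq2, Olig1 and Olig2. They summed to 49.99, 63.35 and 36.05 CPM in knockout caudal 5, 2 and 7, against 83.9, 102 and 126 CPM in control caudal 1, 3 and 9, without overlap. Endothelial markers had 4 of 4 negative estimates (median -0.47), hippocampal formation markers 5 of 6 (median -0.42) and microglial markers 3 of 4 (median -0.19), with 0 calls by either tool. Of the microglial markers 2 had an unadjusted p under 0.05. Forebrain and cortical identity markers had 4 of 4 positive estimates (median 0.17), with 0 calls by either tool. Radial glia and progenitor markers had 5 of 8 (median 0.113), with 2 unadjusted p under 0.05 and 0 calls by edgeR. DESeq2 called 1 of them, Hes5, at 18.45, 20.16 and 12.03 CPM in knockout and 49.95, 37.58 and 39.81 CPM in control caudal libraries. In rostral libraries the ventral forebrain and striatum markers had 8 of 9 negative estimates (median -0.675). There 6 of 10 were negative for interneurons (median -0.088), 7 of 8 for glutamatergic neurons (median -0.127) and 3 of 5 for oligodendrocyte precursors (median -0.0865). Positive were 6 of 6 for the hippocampal formation, 4 of 4 for endothelium and 4 of 4 for microglia. The part of these cell populations in the subunit levels was not tested.

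Without knockout embryo 5, whose caudal library had the raised mitochondrial share, the caudal log2 fold changes by edgeR were -0.51 for Gria1 (SE 0.12, adjusted p = 0.663), -0.47 for Gria4 (SE 0.14, adjusted p = 0.699), -0.715 for Grin2d (SE 0.27, adjusted p = 0.76) and -1.09 for Grin3a (SE 0.35, adjusted p = 0.737).

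The numbers 4858 and 4692 that stand before the embryo number in the titles were treated as possible batches. With the 4692 libraries alone (2 against 2), the caudal log2 fold changes by edgeR were -0.61 for Gria1 (SE 0.09, adjusted p = 0.73), -0.51 for Gria4 (SE 0.16, adjusted p = 0.841), -0.80 for Grin2d (SE 0.30, adjusted p = 0.868) and -1.28 for Grin3a (SE 0.35, adjusted p = 0.831). In the 4858 libraries, with 1 of each genotype, Gria1 was at 71.8 CPM in knockout caudal 5, against 94.6 CPM in control caudal 1, and Grin3a at 3.77 CPM in knockout caudal 5, against 5.55 CPM in control caudal 1. All these values have the sign of the pooled ones.

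Counts of the rostral and caudal library of a titled embryo were added, and these sums gave no called member. Xist and Y-linked transcripts differed between the parts of all titled embryos but knockout 7. A sum therefore cannot be taken as the cortex of a single embryo. By edgeR 0 of 9 members were called, where 0.0317% of 18935 genes were, 0 had an unadjusted p under 0.05, and DESeq2 called 0 beside 0.153% of its genes. All 9 members overlapped between the genotypes, where 8.29% of all genes did not, and the median log2 fold change was -0.08 against -0.000359 over all genes. Grin2d, the member with the smallest p there, was at 4.14, 4.94 and 2.83 CPM in the sums of knockout 5, 2 and 7, against 4.92, 6.71 and 5.09 CPM in the sums of control 1, 3 and 9. Its log2 fold change was -0.46 (SE 0.20, unadjusted p = 0.051, adjusted p = 1 by edgeR). Knockout 2 lay just above control 1, so that the groups overlapped by this pair only.

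Between the parts of the cortex, all 9 members had a lower estimate in caudal than in rostral libraries, and 0 passed. This fit took all 12 libraries with the titled embryo as a block. By edgeR 0% of 18196 genes were called, 4 of 9 members had an unadjusted p under 0.05 against 5.97% of all genes, and DESeq2 called 0 members beside 0.445% of its genes. The median log2 fold change of caudal over rostral was -0.42 for the members and 0.00222 over all genes. The 4 members were Gria1 (-0.45, SE 0.16, adjusted p = 0.829 by edgeR), Gria2 (-0.42, SE 0.15, adjusted p = 0.829), Grin2d (-0.39, SE 0.12, adjusted p = 0.78) and Grin3a (-0.52, SE 0.21, adjusted p = 0.829). Grin2d was lower in the caudal library of 6 of 6 titled embryos, and Gria1, Gria2, Grin1 and Grin3a of 5 of 6. Since Nr2f1 did not follow the titled parts in knockout embryo 2 and control embryo 3, these values compare titles rather than positions. Xist and Y-linked transcripts also differed between the parts of all titled embryos but knockout 7. The block on the titled embryo therefore may not pair libraries of the same animal. In the same comparison the markers of radial glia and progenitors had 8 of 8 higher estimates in caudal libraries (median 0.22), those of the hippocampal formation 5 of 6 (median 0.43), those of microglia 3 of 4 (median 0.48) and those of glutamatergic cortical neurons 3 of 8 (median -0.03), with 0 calls by edgeR or DESeq2. Of these 1, 1, 3 and 0 had an unadjusted p under 0.05. Interneuron markers had 6 of 10 higher (median 0.217), with 2 unadjusted p under 0.05, 0 calls by edgeR and 1 by DESeq2, Sst. Higher too were 8 of 10 for ventral forebrain and striatum (median 0.159) and 4 of 4 for forebrain and cortical identity (median 0.225). Lower were 4 of 5 for oligodendrocyte precursors (median -0.0286) and 4 of 4 for endothelium (median -0.0874). The part of all these markers in the subunit levels was not tested.

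The test of whether the genotype difference itself differed between the parts, caudal minus rostral, called 0 of 9 members by edgeR and 0 by DESeq2, which called 0% of its genes. In that test 0% of 18196 genes were called by edgeR, 1 member (Grin3a, given above) had an unadjusted p under 0.05, and so did 1.46% of all genes. The values for the other members that did not overlap in caudal libraries were -0.50 for Gria1 (SE 0.32), -0.56 for Gria4 (SE 0.48) and -0.47 for Grin2d (SE 0.25), all with an adjusted p of 1 by edgeR. The caudal and rostral results are therefore not shown to differ. This fit too blocks on the titled embryo, which may not pair libraries of the same animal. Its 10 alternatives, the fit without that block among them, called 0 genes and 0 members.

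Most of the subunit genes were high or low in the same libraries. Knockout rostral 2 had the highest CPM for 7 of 9 members and was among the 3 highest for 9, and control rostral 3 was among the 3 highest for 8. Knockout caudal 5 was among the 3 lowest for 8 members. The highest correlations of log2 CPM between members were those of Gria1 with Grin1 (r = 0.94), Grin1 with Grin2b (r = 0.92), Gria1 with Grin2b (r = 0.92) and Gria4 with Grin1 (r = 0.91), each over n = 12 libraries. Gria3 with Grin3a had the lowest (r = -0.10). These correlations describe libraries that share their depth, scaling and group structure across genes, and no p is attached to them.

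**Figure D4:**
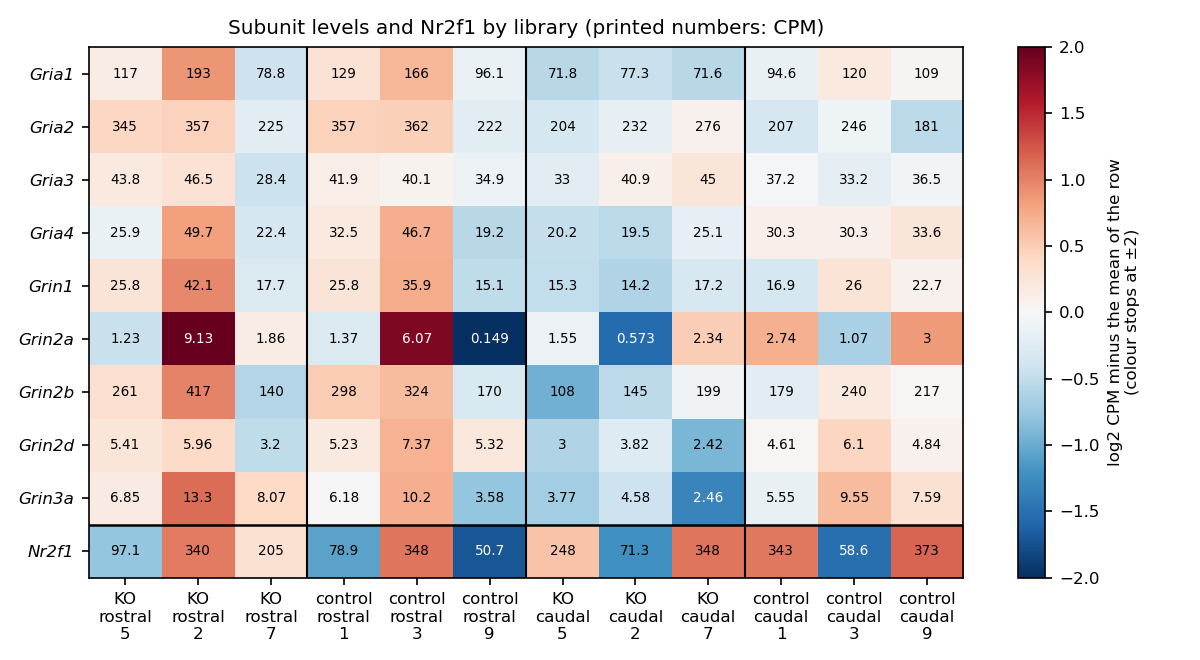
Level of each subunit gene in each of the 12 libraries, drawn as the deviation of its log2 CPM from the mean of that gene over the 12 libraries (colour scale), with knockout left of control within each part. Knockout rostral 2 and control rostral 3 are high for nearly all members, and knockout caudal 5 is low for 8 of 9.

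By the same measure, over 12 libraries and the genes with a mean of at least 10 CPM, the genes closest to each member were as follows. Closest to Gria1 were Gabrb2 (r = 0.97), a GABA-A receptor subunit, Epb41l1 (r = 0.97), which binds GluA1, and Syt1 (r = 0.96), the calcium sensor of vesicle release. Closest to Grin1 were Agap2 (r = 0.99), Ica1l (r = 0.98) and Srcin1 (r = 0.98). Closest to Grin2b were Lmtk3 (r = 0.98), Reep1 (r = 0.98) and Cacna1b (r = 0.97), a presynaptic calcium channel. Closest to Gria4 were Gpr27 (r = 0.98), Asic2 (r = 0.97), an acid-sensing channel, and Scn3b (r = 0.97), a sodium channel subunit.

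Other members had other neighbours. Closest to Grin2a were Tafa2 (r = 0.97), Gabrb1 (r = 0.96), another GABA-A receptor subunit, and Rps6kl1 (r = 0.95). Closest to Grin3a were Tmem179 (r = 0.95), Dpp6 (r = 0.95), a potassium channel partner, and Adgrb1 (r = 0.95). Closest to Gria2 were Adcy6 (r = 0.98), an adenylyl cyclase, Ndor1 (r = 0.95) and Etnk1 (r = 0.94), and to Gria3 Prrc1 (r = 0.96), Gpm6a (r = 0.94) and Zfp354c (r = 0.93). Grin2d had the weakest neighbours, Asns (r = 0.93), asparagine synthetase, Cables2 (r = 0.92) and Sema4g (r = 0.91). The 3 genes named for each member are the highest of at least 9563 searched, and were selected for that value.

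Grin2a was the member whose level went with Nr2f1. The 5 libraries with the highest Nr2f1, control caudal 9, control rostral 3, knockout caudal 7, control caudal 1 and knockout rostral 2, were also the 5 with the highest Grin2a. The library with the lowest Nr2f1, control rostral 9 at 50.7 CPM, had the lowest Grin2a. The correlation of log2 CPM was 0.83 for Grin2a and lay between -0.25 (Grin2d) and 0.48 (Gria4) for the other members (n = 12). Of 6 markers of the hippocampal formation, which was dissected with the cortex, some were high in several of the same libraries and some were not. Prox1 was at 76.8, 69.8, 50.7, 59.0 and 73.0 CPM in those 5 libraries in the order named, and at 23.5 to 56.7 CPM in the other 7. Wnt8b was at 6.61, 6.19, 0.957, 4.01 and 7.03 CPM in the same 5 libraries, and at 0.0366 to 5.68 CPM in the other 7. Lef1 was at 6.33 to 9.72 CPM in the 5 and 2.47 to 8.69 CPM in the 7, and Lmx1a at 0.391 to 2.41 against 0.0366 to 1.48 CPM. Zbtb20 was at 747.5 to 1276 CPM against 486.6 to 844.9 CPM. Lmo3 was at 29.6 to 63.8 CPM in the 5 and at 36.3 to 85.5 CPM in the 7, highest in control caudal 3. The likeness of Grin2a and Nr2f1 was noticed after the values were seen, and the part of hippocampal tissue or of position in it was not tested.

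**Figure D5:**
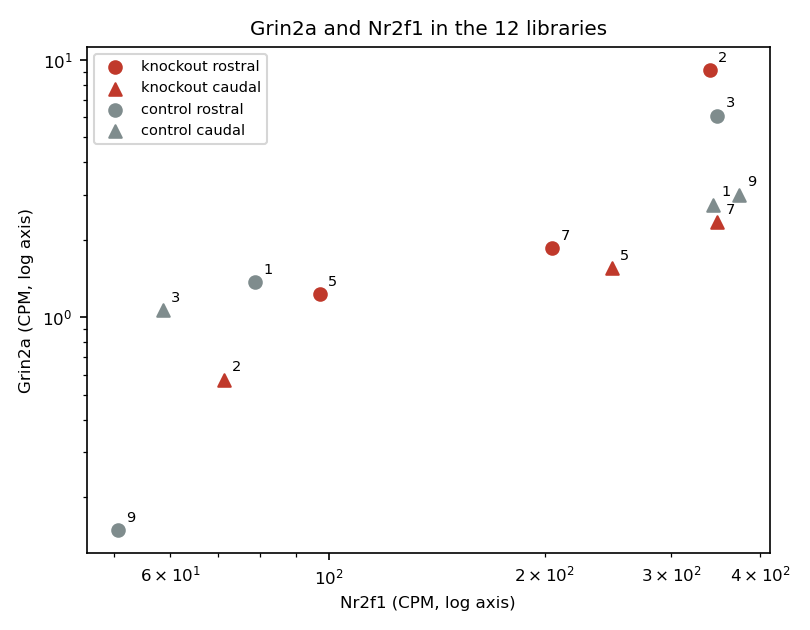
Grin2a against Nr2f1, both in CPM on log axes, 1 point per library with its titled embryo number, knockout in red and control in grey, with the titled part given by the marker shape. The 5 libraries with the highest Nr2f1 are the 5 with the highest Grin2a, and they include libraries titled rostral and caudal of both genotypes.

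The genes that place, anchor and feed these receptors also had mostly negative estimates in caudal libraries. Of 82 genes in 8 lists, 80 were tested there, 12 had a higher and 68 a lower estimate in knockout, and 0 were called by edgeR. There 18 had an unadjusted p under 0.05, and DESeq2 called 1, the scaffold gene Grip2. Over all genes in that comparison 49.6% had a higher estimate, 5.13% an unadjusted p under 0.05 and 0.403% a call by DESeq2. The lists were chosen with earlier results of these data known, so the counts beside all genes are a description only. In rostral libraries 81 were tested, with 53 higher and 28 lower estimates, 0 calls by edgeR or DESeq2 and 0 unadjusted p under 0.05, beside 50.2% higher and 1.05% with such a p over all genes. In the sums 27 were higher and 54 lower, with 0 calls by either tool and 2 unadjusted p under 0.05, beside 49.8% higher and 3.4% with such a p over all genes. All 7 metabotropic receptors tested had a negative caudal estimate (median -0.60), as did 7 of 8 other ionotropic receptor genes (median -0.28), 14 of 18 AMPA receptor auxiliary and assembly genes (median -0.26) and both kainate and NMDA receptor auxiliary genes (median -0.39). So did 19 of 22 scaffold genes (median -0.18), 9 of 10 extracellular clustering genes (median -0.33), 7 of 10 genes of glutamate and co-agonist supply (median -0.02) and all 3 RNA editing enzymes (median -0.14). The same lists had mostly lower estimates in caudal than in rostral libraries, 69 of 81, with 0 calls by edgeR, 14 unadjusted p under 0.05 and 3 calls by DESeq2 (Gsg1l, Grip2 and Grm5). Over all genes 50.5% were higher in caudal libraries, 5.97% had such a p and DESeq2 called 0.445%.

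Among them Grip2, a scaffold that binds GluA2 and GluA3, had the smallest p. It was at 5.18, 6.59 and 4.51 CPM in knockout caudal 5, 2 and 7, against 11.2, 11.8 and 8.94 CPM in control caudal 1, 3 and 9, with a log2 fold change of -0.96 (SE 0.19, adjusted p = 0.408 by edgeR). Prrt1, an AMPA receptor auxiliary protein, was at 2.90, 2.41 and 2.73 CPM in knockout caudal libraries, against 4.17, 4.50 and 4.58 CPM in control caudal libraries (log2 fold change -0.71, SE 0.17, adjusted p = 0.646 by edgeR). Neither gene overlapped between the caudal groups, and neither passed by edgeR. In the other direction Slc17a6, the vesicular glutamate transporter VGLUT2, was at 85.2, 104 and 89.6 CPM in knockout caudal libraries, against 75.3, 77.5 and 67.5 CPM in control caudal libraries (log2 fold change 0.35, SE 0.10, adjusted p = 0.74 by edgeR). The caudal values of others were -1.01 for Cacng3 (SE 0.31), an AMPA receptor auxiliary subunit, -0.91 for Grm7 (SE 0.27), a presynaptic metabotropic receptor, and -0.80 for Nptx2 (SE 0.25), a secreted protein that clusters AMPA receptors. Adarb1, the enzyme that edits the Gria2 pore site, had -0.14 (SE 0.15, adjusted p = 1 by edgeR).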

How the data were processed

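RNA was sequenced as paired reads on a NextSeq500 after mRNA capture, per the labels' protocols. The submitters' processing notes name STAR 2.7.8a and featureCounts 2.0.3 with build GRCm39. The files hold expected counts, per the file headers made with GENCODE vM28 on the reverse strand, with reads at several places or genes shared as fractions by the authors, so 21.6% to 23.9% of values above 0 are not whole. These deposited counts were rounded and tested with edgeR 4.0.16 (quasi-likelihood, robust, TMM, filterByExpr, R 4.3.3), adjusted by Benjamini-Hochberg over all genes at 0.05, with 4 residual degrees of freedom. DESeq2 1.42.0 was an alternative. The fits were also run on simulated data with known changes. Those data held no swapped or mixed libraries and no embryo effects, so they do not bear on these problems. Sums add both libraries of a titled embryo, and the comparison of parts blocks on that embryo.

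CPM divides by a library's total. Per-length levels use exonic length. Members and lists were chosen with earlier results of these data known. Named were the members, their 3 nearest genes and, from each list, genes with the smallest p. Libraries of a group differed beyond counting noise. Precision is limited by 3 libraries a group, and reads carry no molecular identifiers.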

Additional observations from a re-analysis of the deposited data

How the results depend on the processing

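Of 243 alternatives to the 45 member results, embryos left out apart, 240 kept direction and side of the threshold. DESeq2 and the unfiltered fit each called Gria1 in caudal libraries, giving 1 member called, and DESeq2 turned Grin2a in caudal against rostral to 0.0232. Genes called in rostral libraries numbered 4 by DESeq2, 2 unfiltered and 2 with all 12 libraries in one fit. In caudal libraries they numbered 71, 57 and 3, and 0 with the 4692 libraries alone. In the sums they numbered 32 by DESeq2, 113 unfiltered, 2 with the 4692 libraries and 3 with all 12 libraries kept separate. Between the parts they numbered 77 by DESeq2 and 3 unfiltered. With an embryo left out they ran from 2 (without knockout 5) to 8 in caudal libraries, also 4 without knockout 7 and 5 without control 9, and from 2 (without knockout 5) to 21 (without knockout 2) in the sums, also 10 without control 3. By CPM in place of per-length levels, composition was 24.5% Gria1, 60% Gria2 and 6.62% Gria4, and 8.86% Grin1, 85.7% Grin2b, 1.92% Grin2d and 2.65% Grin3a.

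Leaving out an embryo kept the direction in 242 of 270 fits. The 15 results that turned ran as log2 values, in rostral libraries, from -0.37 to 0.28 (Gria1), -0.17 to 0.19 (Gria2), -0.0696 to 0.24 (Gria3), -0.39 to 0.37 (Gria4), -0.19 to 0.51 (Grin1), -0.63 to 2.45 (Grin2a) and -0.35 to 0.39 (Grin2b). In the sums they ran from -0.0666 to 0.20 (Gria2), -0.29 to 0.16 (Grin1), -0.40 to 0.67 (Grin2a) and -0.38 to 0.23 (Grin3a). Between the parts they ran from -0.18 to 0.0866 (Gria3) and -0.80 to 0.71 (Grin2a), and in the interaction from -0.16 to 0.37 (Gria2) and -0.19 to 0.35 (Gria3). The cause was not tested.

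Without the replicate block on the titled embryo, the comparison of parts called 0 genes and 0 members, and Gria1 was at -0.51 (adjusted p = 0.449 by edgeR). The values did not bear out the titled pairing. Libraries of 1 titled embryo had correlations of their deviations from the group means of -0.68 to -0.16, 0 of 6 above 0.1. In 0 of 6 was the caudal library of the same titled embryo the closest of its group to the rostral one. With 3 libraries a group, only changes well beyond the spread between libraries could pass.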
